A study of Oryza sativa with 6 samples.

Results

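Rice roots that had been with a yeast for 24 h were compared with rice roots that had been with it for 6 h, gene by gene and family by family. The comparison rests on the 4 arrays of yeast-treated roots, 2 at each time, out of 6 arrays in the series. The other 2 arrays, of control roots at 0 h with no treatment, did not enter it. All roots came from 3-week-old plants of Oryza sativa, cultivar Swarna MTU7029, a semi-dwarf indica rice. The 6 h and the 24 h roots had both received a cell suspension of Rhodotorula mucilaginosa JGTA-S1, a red-pigmented basidiomycete yeast, and differ by label in the time since then. Whole roots were sampled, so the signal of every cell type is summed, and in such samples fewer cells of a type and less RNA per cell cannot be told apart. The arrays include no roots left untreated until 6 h or 24 h, and the labels give no time of day for a harvest, so time with the yeast, time since handling and time of day cannot be told apart here.

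Roots meet a microbe with signals that run through calcium, kinases and hormones, and over the following hours adjust how they take up nutrients, build cell walls and protect proteins. Ammonium enters the root through AMT transporters and is fixed by glutamine synthetase, while potassium enters through HAK transporters and AKT channels. The circadian clock moves a large share of plant genes through the day, among them genes of heat protection, sugar use and nutrient uptake.

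The deposited log2 signals cover 41770 probe sets on each array, and 15299 of these belong to exactly 1 gene. Together they stand for 14662 genes, 1948 with a symbol. A gene with several probe sets was read by the one whose mean over the 4 arrays was highest. A log2 difference of 1 is a 2-fold difference, and all differences below are 24 h minus 6 h with the standard error of limma's linear model, n = 2 arrays per time. The number of arrays limits the precision: the median standard error was 0.296, and the 95% interval of a difference reached a median of 0.694 to either side. Whether the arrays of one time hold separate plants is not stated in the labels, so the p-values cover the spread between samples as they are, and that spread may be technical.

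The second 6 h array stood apart from the other 3. It correlated with the first 6 h array at r = 0.936 and with the 24 h arrays at 0.930 and 0.933 over all probe sets. The first 6 h array was closer to the 24 h arrays, at 0.978 and 0.971, than to its own replicate, and the 24 h arrays correlated with each other at 0.976. Signals spread less widely on the second 6 h array, with a standard deviation over probe sets of 1.62 against 1.82, 1.79 and 1.75 on the others. Its dim probe sets read higher too, with a lower quartile of 2.13 against 1.91 on the first 6 h array and 1.93 and 1.98 at 24 h. The median standard deviation between replicate arrays was 0.273 at 6 h and 0.167 at 24 h. For each gene named below whose difference became over 1.5 times smaller in size when a 6 h array was left out, the value without that array is given too. Values that grew in size are mostly left out.

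No gene passed the test. With limma's moderated test and Benjamini-Hochberg adjustment over all 41770 probe sets, 0 had an adjusted p under 0.05, a share of 0.0%, and the smallest adjusted p was 0.79. At an unadjusted p under 0.05 there were 1217 probe sets higher at 24 h (2.91%) and 606 lower (1.45%). Together these are 1823, fewer than the 2088.5 that make up 5% of the probe sets. Of the 1823, 66.8% were higher at 24 h, but the share was 53.4% after quantile normalization, 51.4% after cyclic loess, 56.4% with arrays centred on their medians and 44.6% without the second 6 h array. The first 3 of these settings balance the directions by their construction. The share was 71.5% without the dimmest 33.3% of probe sets, 56.2% without the first 6 h array, and 72.0% and 68.2% without the first and the second 24 h array.

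**Figure D1:**
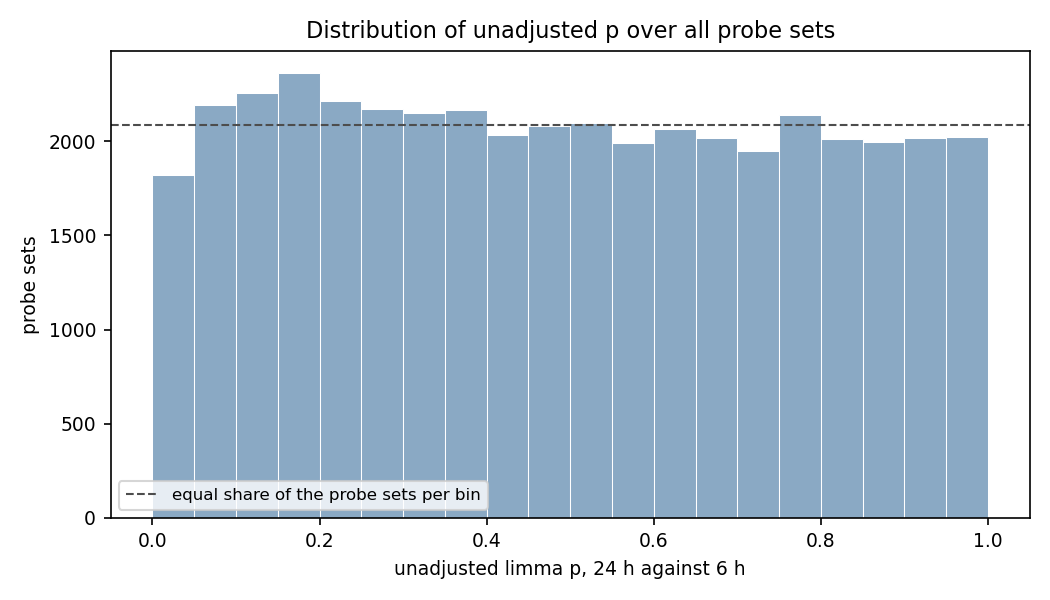
Number of probe sets (y axis) in each bin of unadjusted limma p (x axis) for 24 h against 6 h, over all 41770 probe sets. The first bin, p under 0.05, holds 1823, fewer than an equal share of 2088.5 (dashed line).

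A simpler count asks whether both arrays of one time lay above both of the other. A gene is called wholly above when both 24 h arrays exceeded both 6 h arrays, and wholly below in the opposite case. Of all genes, 2834 (19.3%) lay wholly above and 2151 (14.7%) wholly below. In both directions together, 34.0% of genes and 32.7% of probe sets did not overlap. The order of the 4 arrays alone, with no difference between the times, would give 33.3%. An exact test of 2 arrays against 2 cannot go below a two-sided p of 0.333, so these counts describe and do not test. At an unadjusted p under 0.05 in limma, 521 genes were higher (3.55%) and 267 lower (1.82%). By the sign of the difference alone, 8142 of the 14662 genes (55.5%) read higher at 24 h. Every family count below is to be read against these shares of all genes. The median difference over all genes was 0.05.

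Leaving out the first 6 h array was the one setting tried under which genes passed. The 24 h arrays were then compared with the second 6 h array alone, assumed to vary like the 24 h arrays, and 513 probe sets (1.23%) had an adjusted p under 0.05 in limma, 250 higher and 263 lower. They cover 163 genes, 21 of them with a symbol. Only 363 of the 513 also differed in the same direction from the first 6 h array. Among the genes named below, OsHsf-07, OsITPK3, OsTrx08, OsAMT2;1, PPDK2, LOG and OsCOI1a passed there as higher and NAC077 as lower, beside 4 genes known by number. The count was 0 with the second 6 h array left out, and 0 with each 24 h array left out in turn.

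Among the 1364 genes that fall in the 71 families and marker lists with members, 407 read higher at 24 h than on each 6 h array and 377 read lower than on each. A further 434 read higher than on the second 6 h array and lower than on the first, against 146 the other way round. Differences from the second 6 h array spread more widely, with a standard deviation of 0.567 against 0.398 from the first.

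**Figure D2:**
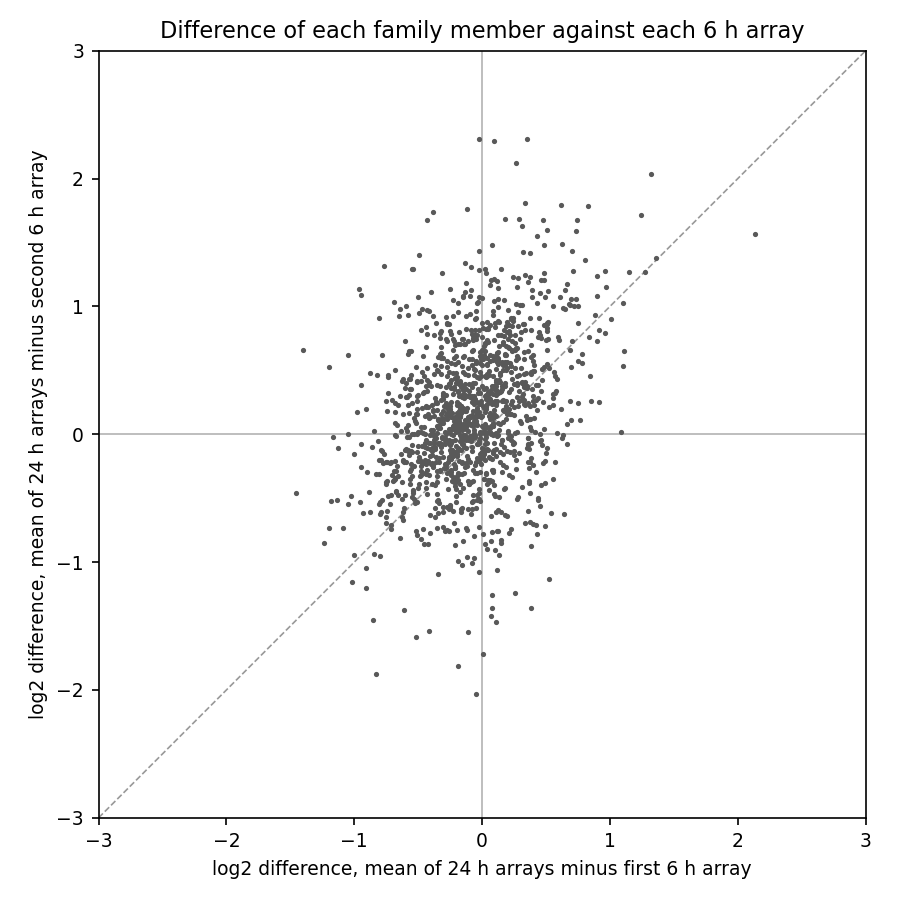
Each point is 1 gene of the families and marker lists. The x axis is the log2 difference of the mean 24 h signal from the first 6 h array and the y axis the same from the second 6 h array, with equal values on the dashed line; points spread more along y (standard deviation 0.567) than along x (0.398).

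The gene with the smallest p is known by number only. LOC4337342 gave 2.96 and 3.22 at 6 h and 5.31 and 5.34 at 24 h, a difference of 2.24 ± 0.27, with an adjusted p of 0.79 in limma. LOC9268371 gave 4.37 and 4.23 at 6 h and 6.07 and 5.95 at 24 h, a difference of 1.71 ± 0.26. In the other direction LOC4336402 gave 3.58 and 4.11 at 6 h and 1.40 and 1.84 at 24 h, a difference of -2.23 ± 0.32. LOC4329797 gave 6.93 and 7.17 at 6 h and 4.86 and 5.29 at 24 h, a difference of -1.98 ± 0.29. In these 4 genes the arrays of a time lay close together and far from those of the other time, and the difference was at least 1.64 in size whichever 6 h array was left out. These genes were picked for the smallest p among all genes without overlap, so such a pattern follows from the choice and is no separate support. All 4 passed without the first 6 h array (adjusted p = 0.048 in limma) and none of them with all 4 arrays. Over all probe sets the differences ran from -2.66 to 2.47, with 524 at least 2-fold higher at 24 h and 311 at least 2-fold lower.

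Heat protection genes were among those that read most clearly higher at 24 h. Small heat shock proteins and larger chaperones hold and refold damaged proteins. Of 18 such genes measured, 14 read higher at 24 h and 9 had both 24 h arrays above both 6 h arrays, against 1 below. The list's median difference was 0.23, and 0.11 without the second 6 h array. OsHsp24.1, a small heat shock protein, gave 3.42 and 3.998 at 6 h and 5.44 and 5.68 at 24 h. Its difference of 1.85 ± 0.31, 3.60-fold, ranks first by p among all genes with a symbol that were higher. HSP81-1, an Hsp90-type chaperone, gave 6.05 and 6.13 at 6 h and 6.87 and 7.43 at 24 h, a difference of 1.06 ± 0.30. OsHsp18.9 and OsHsp23.2 did not overlap either, with differences of 0.67 ± 0.29 and 0.65 ± 0.30.

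Heat stress factors, a family of transcription factors of which some switch such genes on, read the same way. The list takes the family by symbol, whatever a member does to its targets. Of 20 members, 14 read higher, 9 lay wholly above and 1 wholly below, and 4 had an unadjusted p under 0.05, all of them higher. The median was 0.21, and 0.14 without the second 6 h array. OsHsf-07 gave 4.74 and 4.03 at 6 h and 6.05 and 6.08 at 24 h, a difference of 1.68 ± 0.32. OsHsf-24 gave 3.95 and 3.96 at 6 h and 5.18 and 5.28 at 24 h, a difference of 1.27 ± 0.26. The 6 h arrays of OsHsf-24 agree almost exactly, so its difference does not hang on either of them. OsHsf-14 and OsHsf-11 followed with 0.84 ± 0.32 and 0.81 ± 0.27. The signals of OsHsf-11 were dim and lay around the array medians.

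Thioredoxins and glutaredoxins are small proteins that reduce disulfide bonds and so pass redox state on to other proteins. Of 31 members, 23 read higher, 13 lay wholly above and 3 wholly below, and 4 had an unadjusted p under 0.05, all higher. The median was 0.28, and 0.15 without the second 6 h array. OsTrx24 gave 4.17 and 4.28 at 6 h and 5.05 and 5.30 at 24 h, a difference of 0.95 ± 0.27. OsTrx16 gave 3.87 and 3.75 at 6 h and 4.53 and 4.71 at 24 h, a difference of 0.82 ± 0.27. GRXC5, a glutaredoxin, was at 0.82 ± 0.28 and OsTrx18 at 0.63 ± 0.27. OsTrx08 had the largest difference of the list, 1.19 ± 0.63, but its 6 h arrays gave 5.07 and 2.87 and its 24 h arrays 5.19 and 5.14. The size of that difference rests on the second 6 h array, and without it the difference was 0.09.

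The list of antioxidant enzymes and oxidases is a mixed one, which also holds glutathione transferases and reductases. Of its 34 genes, 15 read higher, 10 lay wholly above and 11 wholly below, with a median of -0.06. The catalase catA gave 7.46 and 7.53 at 6 h and 8.10 and 8.48 at 24 h, a difference of 0.80 ± 0.28. The 2-Cys peroxiredoxin bas1 was at 0.68 ± 0.27 and the ascorbate peroxidase OsAPx02 at 0.67 ± 0.26. OsMDAR2, which regenerates ascorbate, read lower, with 5.09 and 4.82 at 6 h and 4.26 and 4.17 at 24 h, a difference of -0.74 ± 0.27.

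Inositol polyphosphate kinases add phosphates to the inositol ring on the way to phytate and to inositol signals. In the list of 13 inositol and phosphoinositide genes, 9 read higher, 5 lay wholly above and 0 wholly below. The median was 0.20 but -0.01 without the second 6 h array, so the list as a whole did not keep its direction against the first 6 h array. OsITPK3 gave 3.93 and 3.46 at 6 h and 5.28 and 5.07 at 24 h, a difference of 1.48 ± 0.29, 2.78-fold. OsITPK2 gave 3.75 and 3.02 at 6 h and 4.66 and 4.24 at 24 h, a difference of 1.07 ± 0.34. Without the second 6 h array the difference was 1.24 for OsITPK3 and 0.70 for OsITPK2.

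Among clock and photoperiod genes a few read clearly higher. OsPRR37, a pseudo-response regulator of the clock and of flowering time, gave 3.20 and 3.18 at 6 h and 4.37 and 4.75 at 24 h, a difference of 1.37 ± 0.28. OsCCA1, the MYB factor of the morning part of the clock, gave 5.64 and 5.60 at 6 h and 6.46 and 6.60 at 24 h, a difference of 0.91 ± 0.26. GI, the GIGANTEA gene that links clock and flowering, was at 0.39 ± 0.28, also without overlap, and at 0.22 without the second 6 h array. The flowering regulator Ehd3 was the lowest of the list, at -0.43 ± 0.28. In the 14 genes of clock and photoperiod 4 read higher, 3 lay wholly above and 4 wholly below, and the median was -0.15. In OsPRR37 and OsCCA1 the 6 h arrays lay less than 0.1 apart. Harvest hours are not given in the labels, and their part in these differences was not tested.

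**Figure D3:**
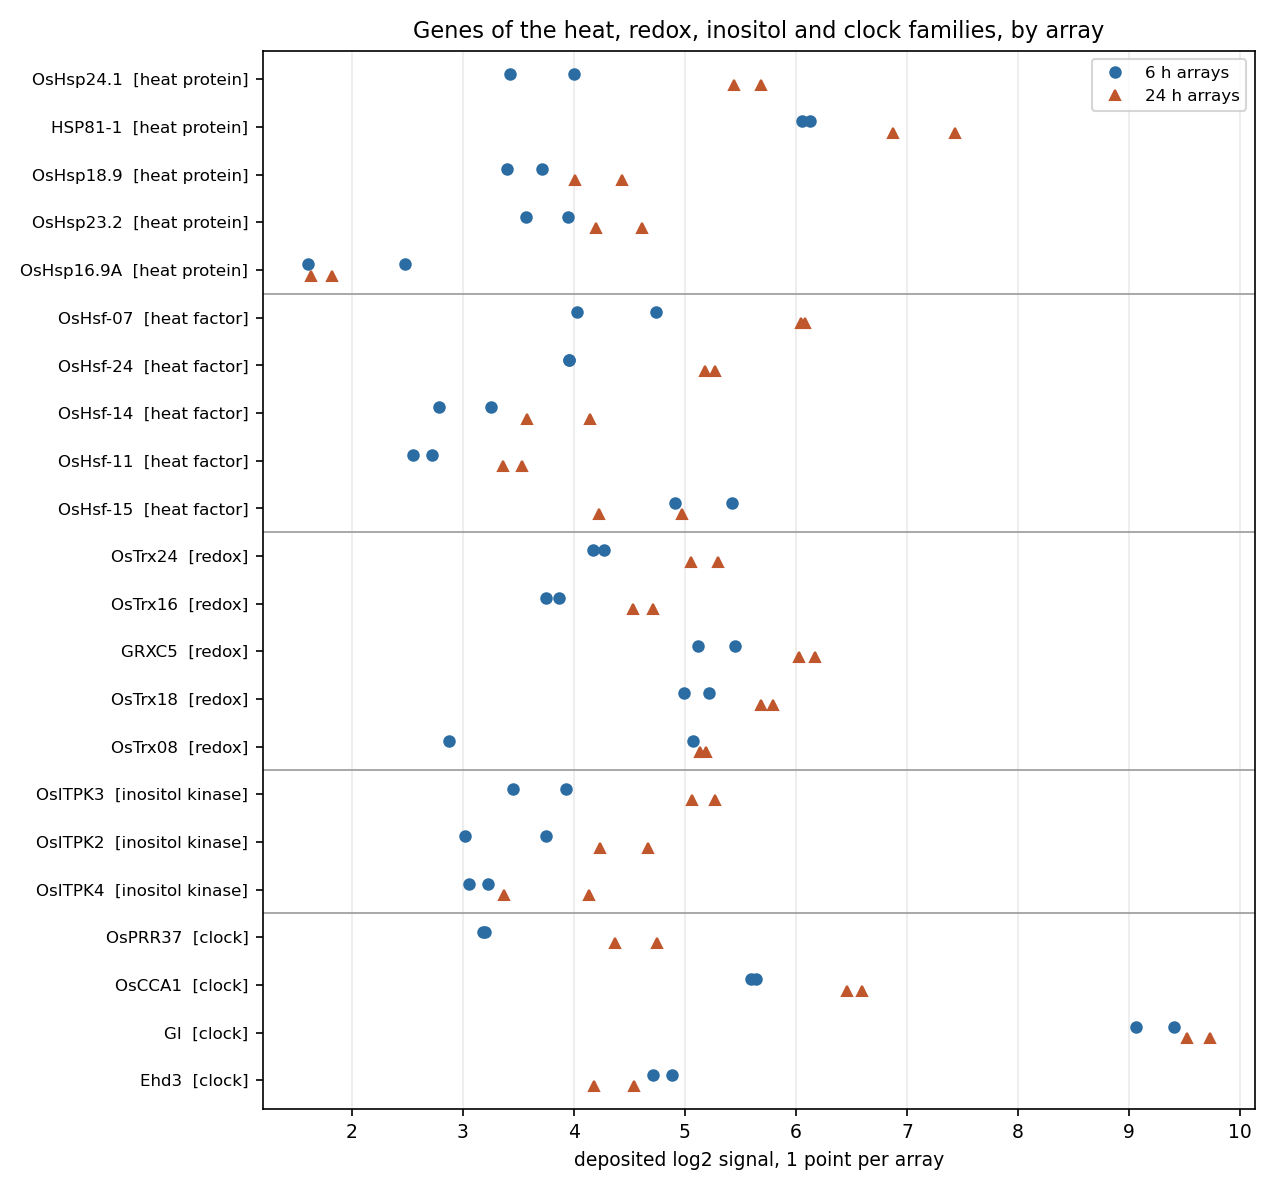
Deposited log2 signal (x axis) of genes of the heat, redox, inositol and clock families, 1 point per array, with 6 h arrays as blue circles and 24 h arrays as orange triangles. OsHsp24.1, OsHsf-07, OsHsf-24, OsITPK3 and OsPRR37 show a gap of over 1 between the 6 h and the 24 h arrays, while the 6 h arrays of OsTrx08 lie at 5.07 and 2.87.

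Expansins loosen cell walls and let cells grow. Of 38 expansins, 26 read higher, 14 lay wholly above and 2 wholly below, with a median of 0.26 and of 0.07 without the second 6 h array. OsEXPB16 gave 3.05 and 2.49 at 6 h and 3.995 and 3.71 at 24 h, a difference of 1.08 ± 0.31. OsEXP22 gave 2.63 and 2.66 at 6 h and 3.42 and 3.22 at 24 h, a difference of 0.67 ± 0.26. OsEXP13 was at 0.82 ± 0.33, and at 0.51 without the second 6 h array. The signals of OsEXP22 and OsEXP13 were dim and lay around the array medians. OsEXP8, the lowest member, was at -0.67 ± 0.30, with 3.79 and 3.65 at 6 h and 2.79 and 3.31 at 24 h.

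Wall-building genes were divided, and 3 stood out as higher. In the list of 42 cellulose synthases, related synthases and other wall genes, 7 lay wholly above and 7 wholly below, and the median was -0.02. OsCslC3, of a cellulose synthase-like group that makes the glucan chain of xyloglucan, gave 4.36 and 4.17 at 6 h and 5.18 and 5.48 at 24 h, a difference of 1.06 ± 0.27. BC1L6, a COBRA-like wall protein, gave 5.30 and 4.96 at 6 h and 6.21 and 6.18 at 24 h, a difference of 1.07 ± 0.27. A second COBRA-like gene, BC1L9, was at 0.67 ± 0.27. IRX9L, a glycosyltransferase of xylan synthesis, was the lowest at -0.63 ± 0.27, and its arrays did not overlap.

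Stress proteins of the late embryogenesis, dehydrin and cold response list also read higher in the median. Of 28 members, 20 read higher, 13 lay wholly above and 4 wholly below, with a median of 0.24. Without the second 6 h array the median was 0.05, close to that of -0.05 for all genes in the same comparison. OsSAP4, a stress-associated zinc finger protein, gave 5.18 and 4.06 at 6 h and 5.54 and 5.68 at 24 h, a difference of 0.99 ± 0.39. OsDREB1F, a dehydration-responsive element binding factor, was at 0.84 ± 0.34, or 0.48 without the second 6 h array, and the dehydrin RAB16C at 0.71 ± 0.32. The first 6 h array of OsSAP4 lies close to the 24 h arrays, and its difference was 0.43 without the second.

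Several genes of nitrogen uptake and assimilation read lower at 24 h. OsGLN1;2, the cytosolic glutamine synthetase that fixes ammonium in roots, gave 9.22 and 9.16 at 6 h and 8.02 and 8.42 at 24 h, a difference of -0.97 ± 0.28, or 1.96-fold lower. The ammonium transporter OsAMT1 gave 6.47 and 6.56 at 6 h and 5.42 and 5.83 at 24 h, a difference of -0.89 ± 0.28. OsAMT1;2 gave 6.25 and 5.74 at 6 h and 5.10 and 5.30 at 24 h, a difference of -0.80 ± 0.30. Both 24 h arrays of each of these genes lay below both 6 h arrays, so each gene also read lower against either 6 h array taken alone. Of the 18 genes in the list 8 read higher, 2 lay wholly above and 6 wholly below, and 3 had an unadjusted p under 0.05, all lower. The median was -0.14, and -0.16 without the second 6 h array. OsAMT2;1, a transporter of another AMT group, went the other way with 1.33 ± 0.58. Its 6 h arrays gave 4.22 and 2.25 and its 24 h arrays 4.42 and 4.71, so the size of that difference comes from the second 6 h array, and without it the difference was 0.35.

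Potassium transporters held strong differences in both directions. OsAKT1, the inward potassium channel of root cells, gave 7.75 and 7.40 at 6 h and 6.50 and 6.84 at 24 h, a difference of -0.91 ± 0.29. OsHAK1, a high-affinity potassium transporter, gave 6.61 and 6.29 at 6 h and 5.54 and 5.81 at 24 h, a difference of -0.77 ± 0.28. OsHAK5 gave 2.30 and 2.90 at 6 h and 1.29 and 1.60 at 24 h, a difference of -1.16 ± 0.31. None of these 3 genes overlapped between the times. By contrast OsHAK22 gave 2.18 and 2.07 at 6 h and 3.19 and 3.48 at 24 h, a difference of 1.21 ± 0.27. The signals of OsHAK5 and OsHAK22, 1.29 to 3.48, lay around the array medians of 2.79 to 2.85, and the files do not say whether signals this dim exceed background. Of the 24 potassium and sodium transport genes 8 lay wholly above and 6 wholly below, and the median was 0.11, or -0.03 without the second 6 h array.

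Phosphate and metal genes had more members wholly below than wholly above. Among 22 phosphate genes 8 read higher, 1 lay wholly above and 6 wholly below, with a median of -0.07, or -0.01 without the first 6 h array. OsPHR3, of the family of factors that switch on phosphate starvation genes, was at -0.72 ± 0.30. Its signals, 2.72 and 2.67 at 6 h and 2.28 and 1.67 at 24 h, were dim and lay below the array medians. The phosphate transporter OsPht1;2 gave 6.11 and 5.98 at 6 h and 5.30 and 5.71 at 24 h, a difference of -0.54 ± 0.28. Among 46 genes of iron, zinc and other metals 18 read higher, 4 lay wholly above and 12 wholly below. Their median was -0.05, and it was -0.22 without the second 6 h array and 0.06 without the first, so its sign depended on the 6 h array used. The median of all genes was -0.05 and 0.16 in the same 2 settings, and the metal list lay below it in both. OsIRT1, the iron transporter of root epidermis, gave 6.56 and 6.58 at 6 h and 5.90 and 5.96 at 24 h, a difference of -0.64 ± 0.26. Arrays of one time differed in OsIRT1 by less than 0.1. OsMTP7, a metal efflux family member, was at -0.56 ± 0.28, and at -0.37 without the first 6 h array. The zinc transporter OsZIP2 was the highest at 0.80 ± 0.34, but at 0.38 without the second 6 h array.

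Genes of the Casparian strip and of lignin, which seal the root against free flow of solutes, were divided with the strongest readings lower. Casparian strip proteins and their relatives (CASPL) are membrane proteins, and laccases polymerise lignin in the wall. Of 28 members 6 lay wholly above and 8 wholly below, and of 5 with an unadjusted p under 0.05, 4 were lower. The median was -0.08, and 0.03 without the first 6 h array. LAC19 gave 5.81 and 4.82 at 6 h and 4.44 and 4.28 at 24 h, a difference of -0.96 ± 0.37. LAC7 gave 5.39 and 4.76 at 6 h and 4.30 and 4.20 at 24 h, a difference of -0.83 ± 0.31. In both laccases the first 6 h array was the high one, and without it LAC19 was at -0.46 and LAC7 at -0.51. OsCASPL1U3 was at -0.85 ± 0.32, or -0.52 without the first 6 h array. OsCASPL5B1 was at -0.74 ± 0.28, while OsCASPL2C1 was at 0.88 ± 0.30. The OsCASPL2C1 signals, 1.44 and 1.90 at 6 h and 2.72 and 2.39 at 24 h, were dim and lay below the array medians. OsCASP1, which builds the strip itself, was at -0.16 ± 0.26.

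**Figure D4:**
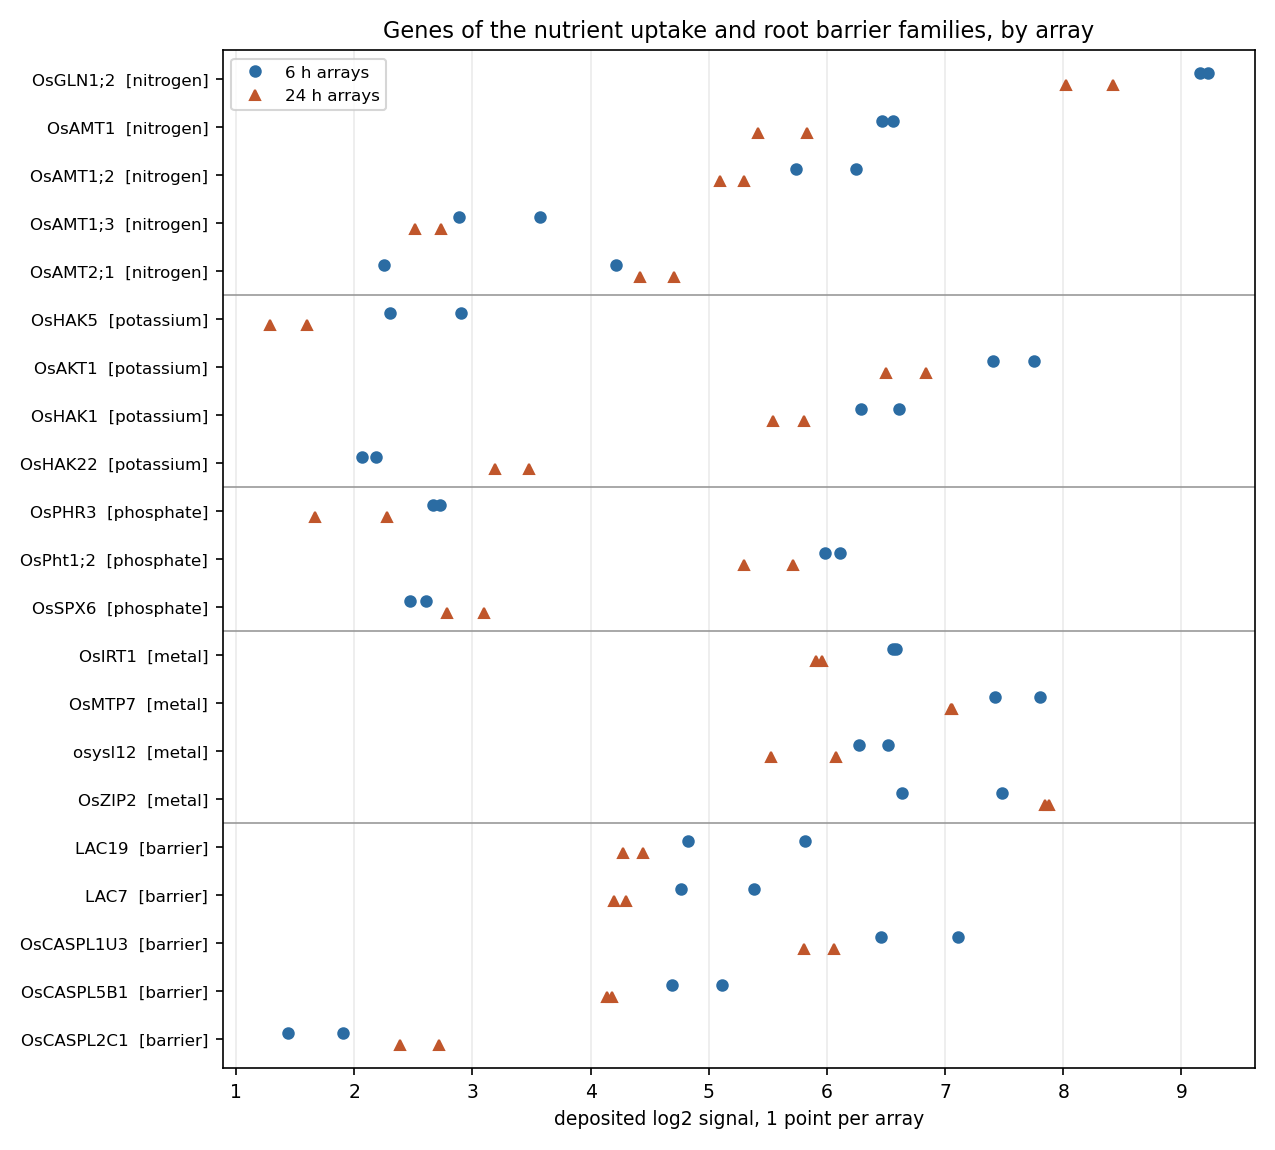
Deposited log2 signal (x axis) of genes of nitrogen, potassium, phosphate and metal uptake and of the root barrier, 1 point per array, with 6 h arrays as blue circles and 24 h arrays as orange triangles. OsGLN1;2, OsAMT1, OsAKT1, OsHAK1 and OsIRT1 have both 24 h arrays below both 6 h arrays, OsHAK22 has both above, and OsAMT2;1 has 6 h arrays at 4.22 and 2.25.

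Abscisic acid signalling uses some of the SnRK2 kinases, called SAPK in rice, and some of the PP2C phosphatases, which hold those kinases inactive. The list takes both families by symbol, so a member need not act in that pathway. Some SAPK and some PP2C genes read lower. OsSAPK1 gave 5.14 and 4.76 at 6 h and 3.72 and 4.09 at 24 h, a difference of -1.04 ± 0.29. OsSAPK3 gave 6.46 and 6.48 at 6 h and 5.70 and 5.79 at 24 h, a difference of -0.73 ± 0.26. The 6 h arrays of OsSAPK3 lay less than 0.1 apart, and so did its 24 h arrays. The phosphatase gene OsPP2C31 gave 3.79 and 4.09 at 6 h and 2.77 and 3.01 at 24 h, a difference of -1.06 ± 0.28, and a second probe set of it read -1.14. OsPP2C57, in contrast, was at 1.05 ± 0.39, with 4.15 and 3.06 at 6 h and 4.72 and 4.59 at 24 h, and at 0.51 without the second 6 h array. Over the 60 genes of the list 36 read higher, 11 lay wholly above and 10 wholly below. The median was 0.08, or -0.11 without the second 6 h array.

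Diterpenoid phytoalexins are antimicrobial compounds of rice, made from copalyl diphosphates. The list of 8 had the lowest median of the 70 lists with at least 5 genes, -0.46, and -0.39 without the second 6 h array. In it 2 genes read higher, 1 lay wholly above and 5 wholly below. OsCPS4, the synthase of the syn-copalyl diphosphate branch, gave 3.99 and 3.72 at 6 h and 3.15 and 3.24 at 24 h, a difference of -0.67 ± 0.27. OsKS4 gave 2.14 and 3.00 at 6 h and 2.05 and 1.91 at 24 h, a difference of -0.59 ± 0.35. That difference was -0.16 without the second 6 h array and -1.02 without the first. The cytochrome P450 gene CYP71Z7 gave 2.73 and 3.01 at 6 h and 2.32 and 2.41 at 24 h, a difference of -0.51 ± 0.27. OsMAS, which completes momilactone A, gave 2.46 and 2.61 at 6 h and 2.95 and 2.82 at 24 h and was the highest at 0.34 ± 0.26. The signals of OsKS4, CYP71Z7 and OsMAS lay around the array medians of 2.79 to 2.85. Whether signals this dim exceed background is not stated.

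Calcium signalling families held single genes with large differences and medians near 0. CIPK kinases are switched on by CBL calcium sensors. OsCIPK07 gave 4.12 and 3.81 at 6 h and 4.98 and 5.18 at 24 h, a difference of 1.12 ± 0.28. OsCIPK10 gave 9.41 and 9.05 at 6 h and 10.33 and 9.75 at 24 h, a difference of 0.81 ± 0.31. OsCIPK17 gave 4.73 and 4.87 at 6 h and 3.75 and 3.90 at 24 h, a difference of -0.98 ± 0.26, and its second probe set read -1.54. The 23 CBL and CIPK genes had 5 wholly above, 4 wholly below and a median of 0.02. The calcium-dependent kinase OsCDPK14 was at 0.86 ± 0.27, from dim signals of 1.895 and 1.61 at 6 h and 2.62 and 2.61 at 24 h. OsCDPK21 was at 0.67 ± 0.26, and the median of the 19 calcium-dependent kinases was 0.02. Both medians turned negative without the second 6 h array, at -0.06 and -0.12.

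Hormone families were likewise divided. In the auxin list of 47 genes 12 lay wholly above and 11 wholly below, and the median was -0.04. IAA6, an Aux/IAA repressor, gave 6.72 and 6.71 at 6 h and 6.02 and 5.98 at 24 h, a difference of -0.71 ± 0.26, and IAA9 was at -0.99 ± 0.43, or -0.61 without the second 6 h array. In the cytokinin list of 31 genes OsCKX5, which degrades cytokinin, was the highest at 1.21 ± 0.44, and at 0.74 without the second 6 h array. LOG, which activates cytokinin, gave 5.52 and 4.13 at 6 h and 5.76 and 5.86 at 24 h, a difference of 0.99 ± 0.45. The first 6 h array of LOG lay near its 24 h arrays, and without the second its difference was 0.29. OsAHP2, which passes the cytokinin signal on, was the lowest with 6.27 and 6.16 at 6 h and 5.56 and 5.46 at 24 h, a difference of -0.70 ± 0.26. The type-A response regulator OsRR10 was at 0.64 ± 0.30, or 0.38 without the second 6 h array.

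In the jasmonate list of 28 genes the receptor gene OsCOI1a was the highest at 1.20 ± 0.40, with 5.54 and 4.36 at 6 h and 6.16 and 6.14 at 24 h, and at 0.62 without the second 6 h array. OsJAZ2, of the repressors that this receptor removes, was the lowest at -0.50 ± 0.27. The list's median was -0.02, and -0.22 without the second 6 h array. In the gibberellin and brassinosteroid list of 20, OsCYP90A4 of brassinosteroid synthesis was at 0.89 ± 0.29 and the BRI1-like receptor gene BRL1 at -0.71 ± 0.29. The OsCYP90A4 signals, 2.425 and 1.94 at 6 h and 3.11 and 3.03 at 24 h, were dim and lay around the array medians. Phytosulfokines are growth peptides cut from PSK precursors, and 2 precursor genes differed in opposite directions. PSK2 gave 4.62 and 4.79 at 6 h and 5.54 and 5.63 at 24 h, a difference of 0.88 ± 0.26. PSK4 gave 5.56 and 5.72 at 6 h and 4.88 and 4.65 at 24 h, a difference of -0.88 ± 0.27.

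OsCYCLOPS, a transcription factor of the pathway that lets fungi and bacteria into roots, gave 2.87 and 3.01 at 6 h and 2.11 and 1.61 at 24 h. Its difference was -1.08 ± 0.29, from signals near or below the array medians. OsCCaMK, the kinase that phosphorylates CYCLOPS, was at 0.51 ± 0.30, likewise from signals near or below the array medians. The differences of the other 7 genes of strigolactone and symbiosis lay between those of OsCYCLOPS and OsCCaMK.

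Several further genes stood out singly. PPDK2, a pyruvate phosphate dikinase, gave 6.12 and 5.16 at 6 h and 6.88 and 7.02 at 24 h, a difference of 1.31 ± 0.36, or 0.83 without the second 6 h array. OsWNK8 was at 0.88 ± 0.30, but of its 2 probe sets the other read 0.24. The argonaute gene OsAGO1d was at 0.70 ± 0.29. The tonoplast aquaporin OsTIP1;2 gave 5.70 and 4.71 at 6 h and 6.27 and 6.11 at 24 h, a difference of 0.98 ± 0.37, or 0.49 without the second 6 h array. The sugar transporter OsSWEET1a gave 5.501 and 4.46 at 6 h and 5.84 and 5.92 at 24 h, a difference of 0.90 ± 0.38, or 0.38 without the second 6 h array. In both transporters the second 6 h array was the low one. The transcription factor NAC077 gave 2.51 and 3.55 at 6 h and 1.55 and 1.81 at 24 h, a difference of -1.36 ± 0.38, or -0.83 without the second 6 h array. The NAC077 signals were dim and lay around or below the array medians. OsTOE1, an AP2-type factor, gave 8.53 and 8.52 at 6 h and 7.49 and 7.82 at 24 h, a difference of -0.87 ± 0.27. OsSWEET4, another sugar transporter, was at -0.57 ± 0.26. In the cell cycle list of 41 genes the retinoblastoma-related OsRBR1 was at 0.78 ± 0.29 and the cyclin CYCP4-1 at 0.84 ± 0.33, or 0.46 without the second 6 h array, and the median was 0.06.

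Of the 70 lists with at least 5 genes, 22 had a median above that of all genes and 47 below it. List medians ran from -0.46 for diterpenoid phytoalexins to 0.36 for the 8 WNK kinases, and the latter was -0.05 without the second 6 h array. Dropping that array changed the sign of 26 of the 70 medians and dropping the first 6 h array that of 27. The median of all genes was -0.05 without the second 6 h array and 0.16 without the first. Heat shock proteins, heat stress factors and the redox list had a median above 0.1 without the second 6 h array. So did the 7 histones and the 8 genes of fermentation and low oxygen, both at 0.14. The nitrogen, phosphate and diterpenoid lists had a negative median whichever 6 h array was left out. So did other lists, among them MYB factors, DNA replication genes and actin, formin and tubulin genes. The metal and barrier lists had a positive median without the first 6 h array, though below that of all genes. DNA replication genes had 0 of 33 members wholly above and 6 wholly below, with a median of -0.04. Actin, formin and tubulin genes had 4 of 33 wholly above and 9 wholly below, with a median of -0.09. Calmodulins, ribosomal proteins, kinesins, MAP kinases, phenylpropanoid genes and the list of chitinases and defence proteins had medians within 0.06 of 0. These are descriptions of the lists, and no list was tested as a set.

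**Figure D5:**
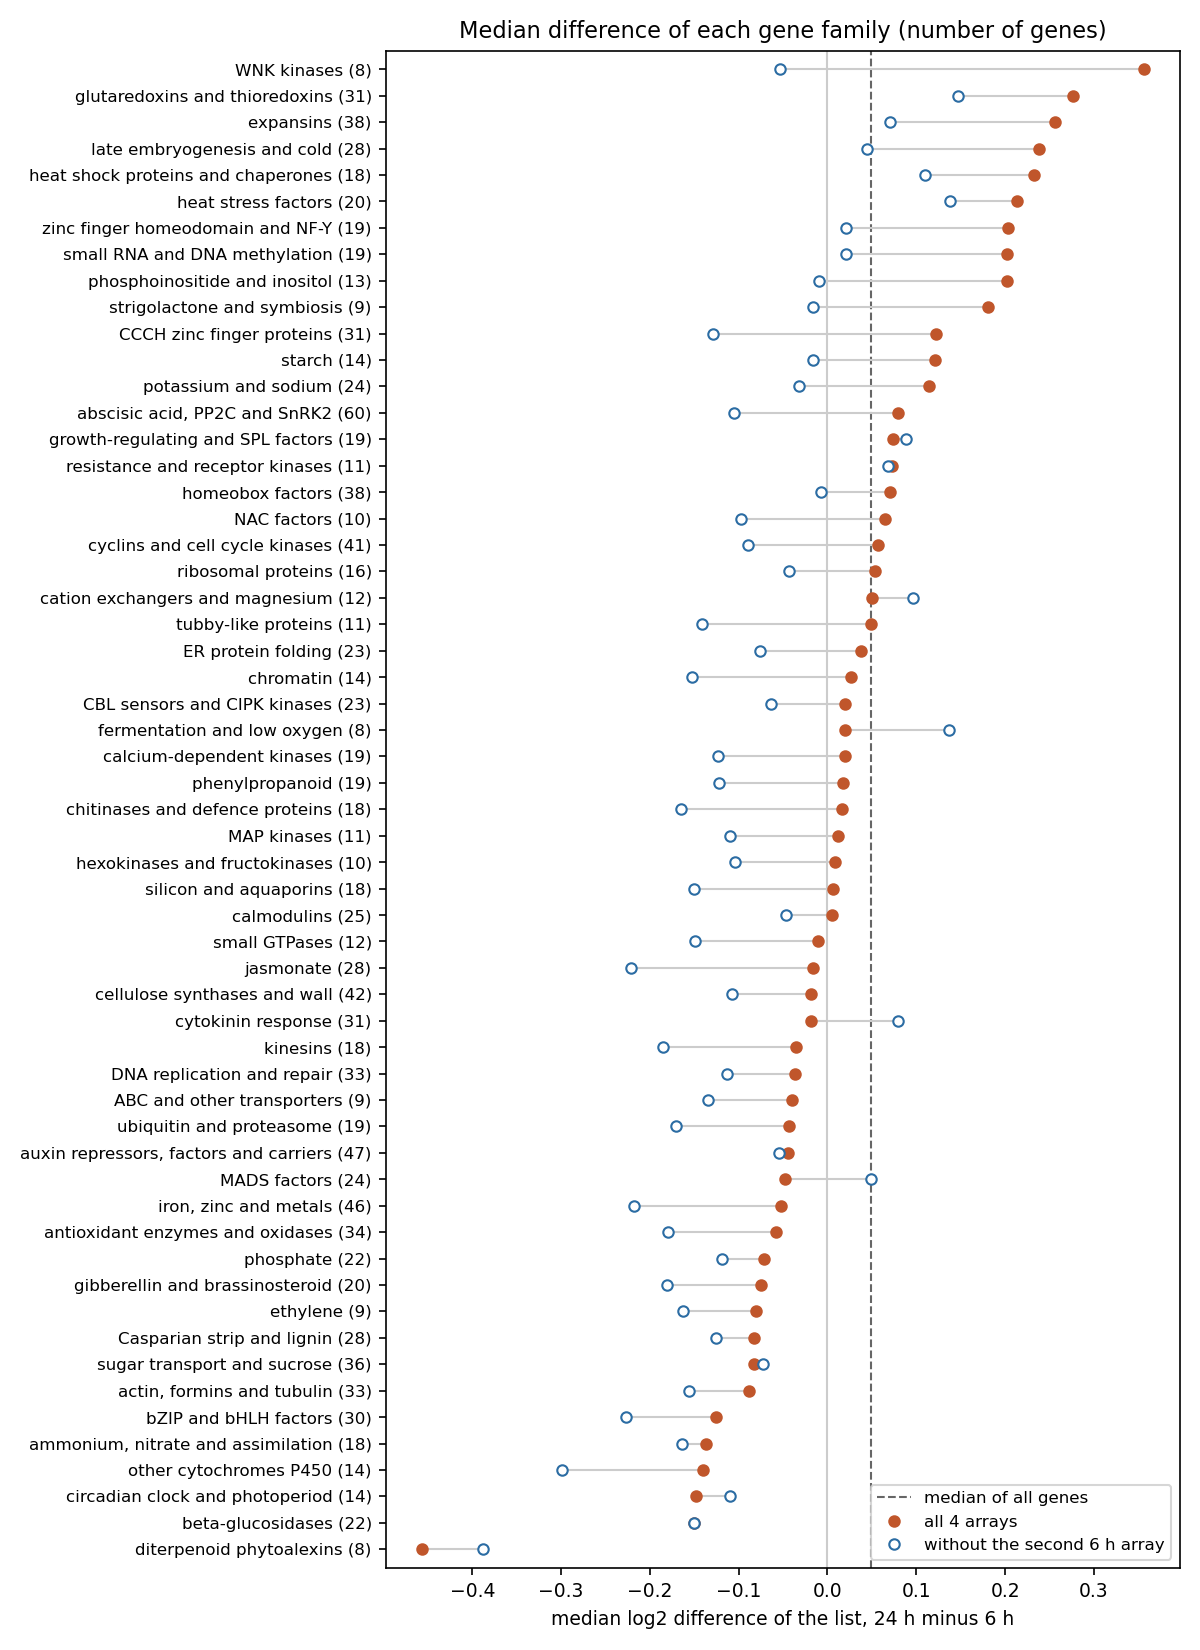
Median log2 difference, 24 h minus 6 h (x axis), of each gene family with at least 8 genes (y axis, number of genes in parentheses), with all 4 arrays (filled points) and without the second 6 h array (open points); the dashed line is the median of all genes. Heat, redox and expansin families lie to the right with all 4 arrays and diterpenoid phytoalexins farthest to the left, and many open points lie to the left of the filled ones.

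Marker lists of other tissues and of root cell types were read in the same way. The green shoot list of 23 genes had 3 wholly above and 4 wholly below, with a median of -0.05, or -0.37 without the second 6 h array. PPDK2, given above, was its highest member. CAB1R, a chlorophyll-binding protein, was at 0.99 ± 0.30, while LFNR1 and LTD were at -0.65 ± 0.28 and -0.64 ± 0.26. All signals of LFNR1 and LTD were dim and lay below the array medians. Of 7 markers of endodermis and stele 0 lay wholly above and 4 wholly below, with a median of -0.15. Of 27 markers of dividing cells 5 lay wholly above and 1 wholly below, with a median of -0.03, and flower and seed markers had 0 of 9 on either side. Of 12 meiosis markers 2 lay wholly above and 0 wholly below. The part of tissue makeup in the differences above was not tested.

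The 0 h arrays give a further level for these genes, as a description only. Of the 12 genes with a symbol, smallest p and no overlap that were higher at 24 h, the 0 h mean was nearer to the 24 h mean in 4 and nearer to the 6 h mean in 8. Of the 12 chosen likewise as lower, it was nearer to the 24 h mean in 9. HSP81-1 read 7.91 and 7.28 at 0 h, nearer to its 24 h than to its 6 h signals, and its 0 h mean lay above the means of both later times. OsHsp24.1 read 4.76 and 4.51, between its 6 h and 24 h signals. OsCCA1 read 4.30 and 4.34 at 0 h, below both later times, and OsGLN1;2 read 8.75 and 8.70, between them.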

How the data were processed

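The authors deposited 1 table of summarised log2 signals per probe set for 6 Affymetrix arrays, made from biotin-labelled root RNA with the WT labelling kit, per the labels' protocols. Affymetrix Expression Console was used, per the submitters' processing notes; its version, the normalization and the build behind the array were not found in the labels (not given in the sources used here). Base 2 was read from the range of the values, and every fold rests on it.

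Gene names came from the platform annotation (15299 with 1 gene, 436 with several, left unnamed, and 26035 with none). Symbols for 1948 of 14662 genes came from RefSeq gene tables of ASM3414082v1; 607 genes had several probe sets, which differed in sign in 224. The 24 h and 6 h arrays were compared with limma 3.58.1 (lmFit, eBayes) in R 4.3.3, with 2 residual and 5.22 prior degrees of freedom and Benjamini-Hochberg adjusted p-values across the 41770 probe sets, threshold 0.05. The fit was tested on simulated data. Python 3.11.15 made tables and plots.

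The comparison and the 72 gene lists (symbol patterns, 1 without members) were chosen with earlier results of these data known, and the symbol patterns were edited after the annotation was seen to drop false matches. Genes were named as the 12 per direction with the smallest p among those whose arrays did not overlap, at most 2 per direction by number and the same again among symbols, plus the 4 with the smallest p, the highest and the lowest of each list; the text names part of these. Normalization, centring, a filter on dim probe sets, the variance model, array weights, the arrays in the fit, the thresholds and a replicate block were varied.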

Additional observations from a re-analysis of the deposited data

How the results depend on the processing

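The count of probe sets past the adjusted threshold, 0, was also 0 under quantile normalization, cyclic loess, median centring, without the dimmest 33.3% of probe sets, with an intensity trend and robust estimation, with array weights, with all 6 arrays in the fit, with a fold of at least 2 required and with 1 probe set per gene. Leaving out 1 array in turn gave 0 to 513. For genes in lists that range was 0 to 13, and for the genes named 0 to 12. The 1823 probe sets with an unadjusted p under 0.05 became 1097 with all 6 arrays in the fit, 582 with a fold of at least 2 and 788 with 1 probe set per gene, where fewer features are tested, and 610 to 9327 with 1 array left out. Probe sets whose times did not overlap, 13649, became 24660 to 32646 with 1 array left out, where 3 arrays can overlap less often than 4. None of the 97 genes named changed sign under any of these settings. They were named for arrays that did not overlap or for a small p. A gene without overlap cannot change sign when 1 array is left out, so this result largely follows from the choice of genes. List medians, not chosen in that way, changed sign in 13 of 70 under quantile normalization and 16 under cyclic loess, and the cause was not tested. A fit with the replicate number as a replicate block gave 0 adjusted calls and 2599 at an unadjusted p under 0.05. The labels do not say that equal numbers mark a pair, and deviations of equal numbers correlated at 0.155 over 2 pairs. Depth is unknown for these arrays, since the deposited values carry neither background readings nor detection calls.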
